A study of Mus musculus with 8 samples.

Results

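A set of 10 genes of pericentral hepatocytes that depend on Wnt signalling were followed in newborn mouse liver: Glul, Oat, Rhbg, Slc1a2, Axin2, Lgr5, Rnf43, Znrf3, Tbx3 and Lect2. They were picked by name, as known targets of Wnt and β-catenin around the central vein, with earlier results of these data known. The 10 genes have 14 probes on the array. Probes counted as measured where the scanner called them well above background on 4 or more arrays, which left 9 of these genes among 23526 genes tested in all. Axin2 did not pass. Cyp2e1 and Cyp1a2, cytochrome P450 genes of the same hepatocytes, were set beside them for comparison only.

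Total RNA was taken from a fragment of the large liver lobe of C57BL/6J pups taken by caesarean at E19.5, and death followed 4 h after it. The knockout group (4 arrays) had received from the mother a chromosome without the miR-379/miR-410 cluster of microRNA genes, and the wild-type group (4 arrays) consisted of littermates. The deletion is inherited through the germline and is not limited to hepatocytes. Each RNA was labelled with Cy3 and hybridised to 1 single-colour Agilent array. A level below is the log2 processed signal relative to the array's 75th percentile, and a difference is knockout minus wild-type on that log2 scale with its standard error (SE). Levels of single genes were not compared with each other, because each probe has its own brightness. Summed signals, given below for marker lists, add linear signals within an array, so the brightest probes weigh most in them.

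In the liver lobule, blood flows from the portal tract to the central vein, and hepatocytes along this path do different work. Endothelial cells of the central vein secrete Wnt ligands, which stabilise β-catenin in the hepatocytes next to them. These hepatocytes switch on glutamine synthetase, which traps the ammonia that escaped the periportal urea cycle, and many cytochrome P450 genes. The same signal induces its own regulators, among them Axin2, Lgr5, Rnf43 and Znrf3. Zonation of this kind is set up gradually around and after birth. The RNA came from whole tissue, so fewer cells of a type and less RNA per cell cannot be told apart.

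The deleted cluster holds many microRNAs. The mature sequences of the 2 that give it its name, from RefSeq (GRCm38.p6, plus strand), are shown to identify the deletion, with the seed, bases 2 to 8, in capitals. They lie at chr12:109709065-109709085 and chr12:109743764-109743784, and their seeds differ.
mmu-miR-379-5p: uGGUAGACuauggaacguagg
mmu-miR-410-3p: aAUAUAACacagauggccugu

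Promoter windows from RefSeq (GRCm38.p6, 250 bases before to 50 after the start site) were matched for Glul, Oat, Slc1a2, Axin2, Rnf43 and Lect2, 7 windows in all since Rnf43 has 2. The core of the Tcf/Lef motif, to which the DNA-binding partners of β-catenin attach, was searched as CTTTGAT and as its reverse complement ATCAAAG on both strands. It occurred in 2 of the 7 windows, those of Slc1a2 and Lect2, and in 3.73% of 32851 windows of the same length. The variant CTTTGAA, or TTCAAAG on the other strand, occurred in 0 of the 7 windows and in 5.14% of all windows. Both windows that hold the motif are printed 5′ to 3′ on the gene's strand, with the matched letters in capitals. The Slc1a2 window lies at chr2:102706188-102706487 on the plus strand, with the match at bases 44 to 50. The Lect2 window lies at chr13:56548489-56548788 on the minus strand, with the match at bases 219 to 225, which ends 25 bases before the start site. A match of letters is a description and not a measured binding site.
Slc1a2: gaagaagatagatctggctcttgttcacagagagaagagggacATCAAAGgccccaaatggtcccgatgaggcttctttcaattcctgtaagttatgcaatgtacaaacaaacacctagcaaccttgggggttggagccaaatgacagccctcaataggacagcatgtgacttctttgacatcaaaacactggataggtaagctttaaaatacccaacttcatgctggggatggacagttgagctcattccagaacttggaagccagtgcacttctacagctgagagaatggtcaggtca
Lect2: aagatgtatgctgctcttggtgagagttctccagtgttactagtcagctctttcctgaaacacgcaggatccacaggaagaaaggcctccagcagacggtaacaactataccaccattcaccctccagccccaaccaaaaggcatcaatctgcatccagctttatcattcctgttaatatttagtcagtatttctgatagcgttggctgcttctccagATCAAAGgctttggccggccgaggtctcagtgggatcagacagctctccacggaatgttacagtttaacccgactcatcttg

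Several facts of the series bear on the values. The share of spots well above background ran from 58.6% to 66.2%, and 0 spots were saturated. All arrays shared 1 slide, with knockout livers in 1 column and wild-type livers in the other, and the effects of column and genotype cannot be told apart. Mirg, the noncoding RNA gene that hosts microRNAs of the cluster, had a level of -0.53 ± 0.33 in knockout livers and 2.17 ± 0.06 in wild-type livers (SD, n = 4 each), a difference of -2.70 (SE 0.15, limma adjusted p = 0.000345). Whether its probe lies inside the deleted stretch is not given in the sources used here. Xist, transcribed in females, was detected above background in 3 knockout and 0 wild-type livers, while the Y-linked gene Ddx3y was detected in 2 knockout and 3 wild-type livers. Knockout 4 showed both and wild-type 3 neither. A least-squares weighted sum of the other 3 arrays of the group gave knockout 4 weights of 0.60 for knockout 3 and 0.25 for knockout 2, and wild-type 4 weights of 0.59 for wild-type 3 and 0.34 for wild-type 2. The weights were made to sum to 1, so every array has such a fit, and knockout 3 had a weight of 0.94 for knockout 4. The residual SD was 0.20 for knockout 4, against 0.25 to 0.31 for knockout 1 to 3. It was 0.26 for wild-type 4, against 0.28 to 0.41 for wild-type 1 to 3. Weights alone cannot tell a mixture from a separate animal. Replicate 4 may not be an independent animal, and if so the p-values from 8 arrays are too small. Results are given for 8 arrays and, where a call rests on them, for the 6 arrays without replicate 4. Summed signals of 10 pancreas genes stood at 4.71 to 5.09 in knockout livers and at 6.24, 3.95, 82.2 and 40.2 in wild-type 1 to 4. Summed signals of 7 skeletal muscle genes stood at 1.40 to 1.67 in knockout livers and 2.08 to 4.15 in wild-type livers, with 6 of 7 lower. Of the 7, 1, the myosin light chain gene Myl1, passed in limma (difference -3.27, adjusted p = 0.0283), against 0.179% of all genes passing lower. Without the replicate 4 arrays Myl1 did not pass (-3.16, adjusted p = 0.370). The part of muscle tissue in the differences below was not tested.

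Across all genes, 51 (0.217%) passed an adjusted p of 0.05 in limma, 42 lower in knockout livers (0.179%) and 9 higher (0.0383%). Of the 9 Wnt-dependent pericentral genes measured, 0 passed in limma, and 1, Lect2, had an unadjusted p under 0.05, as did 13.4% of all genes (6.48% lower and 6.89% higher in knockout livers). Mean levels were lower in knockout livers for 7 of the 9 and higher for 2, with a median difference of -0.09 beside 0.03 over all genes tested. The groups did not overlap for 1 of the 9, against 9.13% of all genes (4.37% with knockout below and 4.76% with knockout above). The adjusted p ran from 0.290 to 0.938. Without the replicate 4 arrays, 5 genes passed lower in knockout livers (0.0213%) and 0 passed higher, and 0 of the 9 were among them.

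**Figure D1:**
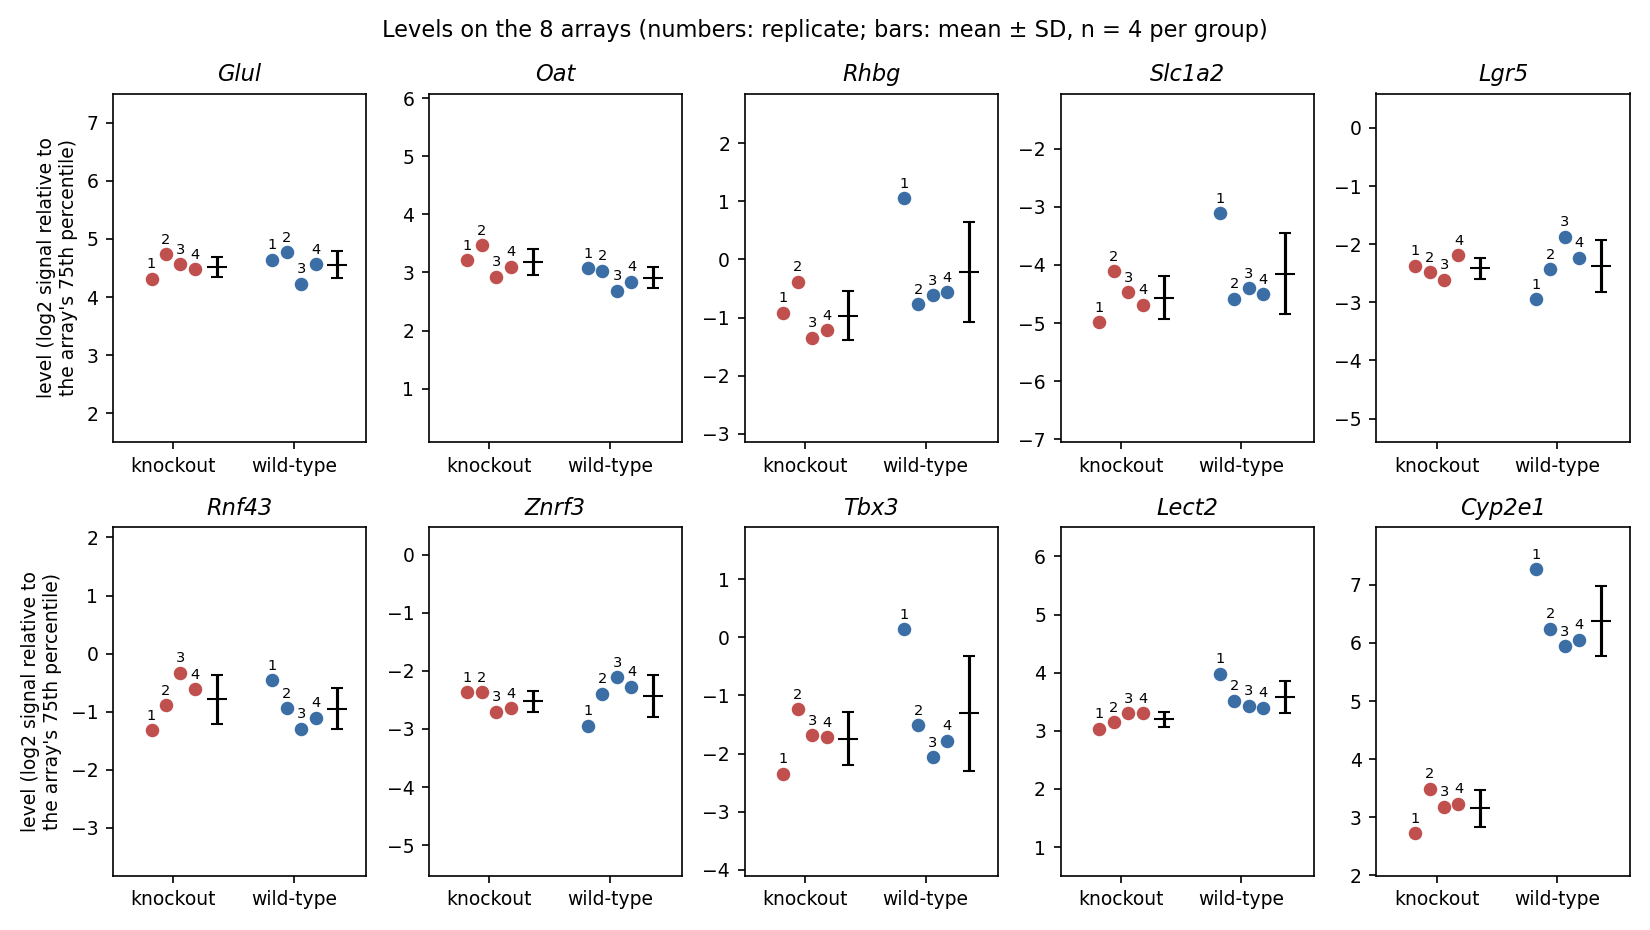
Levels of the 9 measured Wnt-dependent pericentral genes and of Cyp2e1 (y axis, log2 signal relative to the array's 75th percentile, each panel spanning the same height) on the 4 knockout arrays (left, red) and 4 wild-type arrays (right, blue), with replicate numbers and mean ± SD bars. Knockout and wild-type points interleave for 8 of the 9 genes, Lect2 is lower in every knockout, wild-type 1 stands above the rest for Rhbg, Slc1a2 and Tbx3, and the Cyp2e1 groups are far apart.

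The genes of ammonia and glutamine handling come first. Glul encodes glutamine synthetase, which joins ammonia to glutamate and is the classical marker of the hepatocytes that ring the central vein. Its probe (mm9, chr1:155756765-155756824, plus strand) read 4.32, 4.73, 4.56 and 4.48 in knockout 1 to 4, and 4.64, 4.77, 4.23 and 4.56 in wild-type 1 to 4. The groups overlapped throughout, with the lowest and the highest array both wild-type. Means were 4.52 ± 0.17 in knockout and 4.55 ± 0.23 in wild-type livers (SD, n = 4 each), a difference of -0.03 (SE 0.13, 95% interval -0.33 to 0.28, limma adjusted p = 0.938).

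Oat encodes ornithine aminotransferase, a mitochondrial enzyme that turns ornithine into a precursor of glutamate. Its probe (mm9, chr7:139749726-139749785, minus strand) read 3.21, 3.47, 2.93 and 3.10 in knockout livers, and 3.08, 3.03, 2.69 and 2.84 in wild-type livers. Knockout 1, 2 and 4 lay above every wild-type array and knockout 3 did not. The difference of 0.27 (SE 0.13, interval -0.04 to 0.58) did not pass (limma adjusted p = 0.423). It is the higher of the 2 positive differences among the 9 genes.

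Rhbg encodes an ammonium transporter of the Rhesus family in the hepatocyte membrane. Its probe (mm9, chr3:88047265-88047324, minus strand) read -0.92, -0.38, -1.35 and -1.21 in knockout livers, and 1.06, -0.77, -0.62 and -0.56 in wild-type livers. Wild-type 1 stood alone at the top, and the other 3 wild-type arrays fell inside the knockout range. Means were -0.97 ± 0.43 in knockout and -0.22 ± 0.86 in wild-type livers (SD, n = 4 each). The difference of -0.74 (SE 0.41, interval -1.68 to 0.19, limma adjusted p = 0.457) became -0.32 (interval -0.84 to 0.20, adjusted p = 0.539) without wild-type 1.

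Slc1a2 encodes a high-affinity glutamate transporter, best known from astrocytes and also present in pericentral hepatocytes. Of its 3 probes, 1 (mm9, chr2:102617752-102617811, plus strand) was well above background on all 8 arrays and the other 2 on none. That probe read -4.99, -4.11, -4.47 and -4.68 in knockout livers, and -3.11, -4.58, -4.40 and -4.50 in wild-type livers. Wild-type 1 was again the highest array, and the remaining wild-type arrays lay within the knockout range. The difference of -0.41 (SE 0.34, interval -1.18 to 0.35, limma adjusted p = 0.602) became -0.07 (interval -0.52 to 0.38) without that array.

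Next are the feedback and receptor genes of the Wnt pathway itself. Axin2 encodes a scaffold of the complex that degrades β-catenin, and its induction is a standard readout of active signalling. Both of its probes (mm9, chr11:108812034-108812093 and chr11:108803927-108803986, plus strand) were not well above background on any of the 8 arrays, so no level or fold change is given. The readout most specific to the pathway was therefore not detectable here in either group.

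Lgr5 encodes a receptor for R-spondins, secreted proteins that strengthen Wnt signals. Of its 2 probes, 1 (mm9, chr10:114887403-114887462, minus strand) was well above background on all 8 arrays and read -2.37, -2.48, -2.61 and -2.19 in knockout livers, and -2.94, -2.44, -1.87 and -2.23 in wild-type livers. The wild-type arrays held both the lowest value, wild-type 1, and the highest, wild-type 3, which is also the array with the highest pancreas signal. The difference was -0.05 (SE 0.21, interval -0.53 to 0.44, limma adjusted p = 0.938). It was 0.27 without wild-type 3 and 4 and -0.24 without wild-type 1. The part of pancreas tissue in these values was not tested.

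Rnf43 and Znrf3 encode membrane ubiquitin ligases that remove Wnt receptors from the cell surface, the brake that R-spondins and Lgr5 release. The Rnf43 probe (mm9, chr11:87548958-87549017, plus strand) read -1.31, -0.88, -0.33 and -0.61 in knockout livers, and -0.45, -0.93, -1.29 and -1.10 in wild-type livers. Both groups covered nearly the same span, and the difference was 0.16 (SE 0.24, interval -0.39 to 0.71, limma adjusted p = 0.788). The Znrf3 probe (mm9, chr11:5180918-5180977, minus strand) read -2.37, -2.37, -2.71 and -2.64 in knockout livers, and -2.94, -2.39, -2.11 and -2.28 in wild-type livers. All knockout values lay inside the wild-type range, with a difference of -0.09 (SE 0.18, interval -0.50 to 0.32, limma adjusted p = 0.845). Wild-type 1 was the highest wild-type array for Rnf43 and the lowest of all arrays for Znrf3.

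Tbx3 encodes a T-box transcription factor of developing and pericentral hepatocytes. Its probe (mm9, chr5:120134511-120134570, plus strand) read -2.34, -1.23, -1.69 and -1.71 in knockout livers, and 0.14, -1.51, -2.06 and -1.78 in wild-type livers. As for Rhbg and Slc1a2, wild-type 1 stood above every other array and the remaining wild-type values fell inside the knockout range. Means were -1.75 ± 0.46 in knockout and -1.30 ± 0.99 in wild-type livers (SD, n = 4 each). The difference of -0.44 (SE 0.46, interval -1.50 to 0.61, limma adjusted p = 0.688) was 0.04 (interval -0.56 to 0.64) without wild-type 1, so that its sign rests on that array.

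Lect2 encodes a protein secreted by hepatocytes, and its promoter window, like that of Slc1a2, holds the Tcf/Lef letters printed above. Its probe (mm9, chr13:56643829-56643888, minus strand) read 3.03, 3.15, 3.30 and 3.30 in knockout livers, and 3.98, 3.52, 3.43 and 3.40 in wild-type livers. Every knockout array lay below every wild-type array, which also holds for 4.37% of all genes. Means were 3.20 ± 0.13 in knockout and 3.58 ± 0.27 in wild-type livers (SD, n = 4 each), 1.31-fold lower in knockout livers. The difference of -0.38 (SE 0.14, interval -0.70 to -0.07) had an unadjusted p of 0.0228 in limma and did not pass after adjustment over all genes (adjusted p = 0.290). It was -0.25 (adjusted p = 0.251) without wild-type 1 and -0.48 (adjusted p = 0.632) without the replicate 4 arrays.

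**Figure D2:**
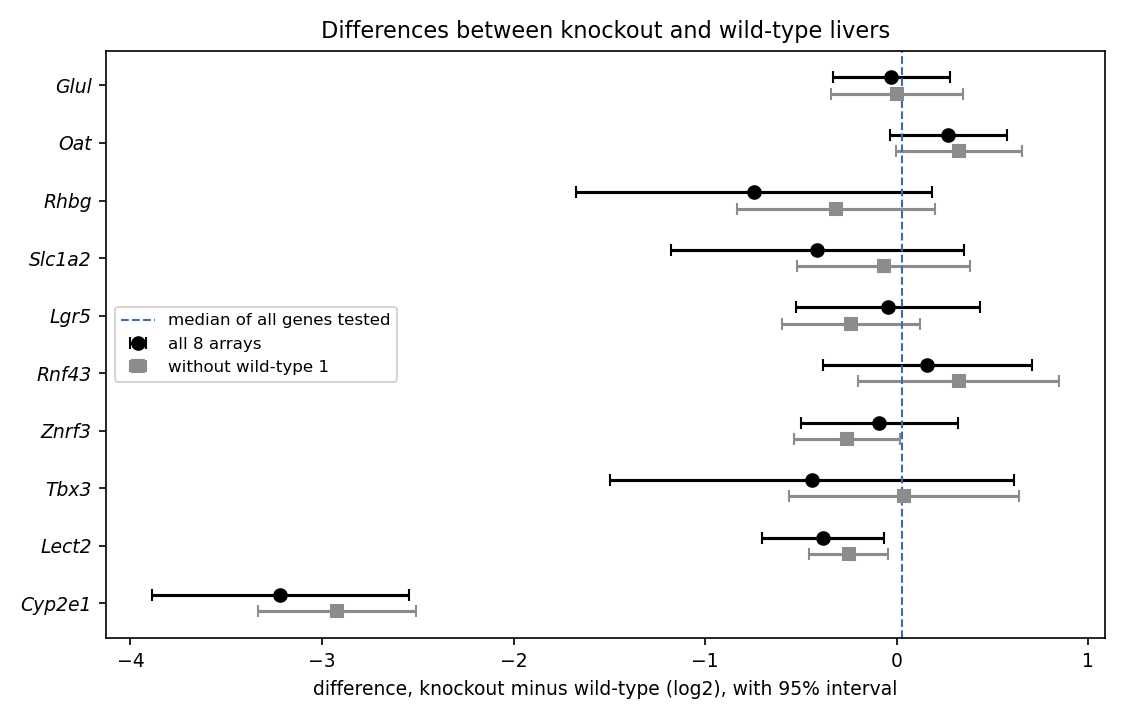
Differences between knockout and wild-type livers (x axis, log2, with 95% intervals) for the 9 measured genes and Cyp2e1, from all 8 arrays (black circles) and without wild-type 1 (grey squares), with the median of all genes as a dashed line. Rhbg, Slc1a2 and Tbx3 move toward 0 without wild-type 1, and the intervals of all 9 genes lie to the right of that of Cyp2e1.

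The precision differed between genes and limits what can be said. The median half-width of the 95% interval was 0.48 for the 9 genes, against 0.26 for all genes tested. The narrowest intervals were those of Glul, Oat and Lect2, and the widest those of Tbx3, Rhbg and Slc1a2. Over the 9 genes the intervals ran from -1.68 to 0.71, so that a fall of up to 3.19-fold, for Rhbg, lay within its interval. An adjusted p above 0.05 does not show that knockout and wild-type levels were alike.

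Cyp2e1, the ethanol-inducible cytochrome P450 of pericentral hepatocytes, fell on the same arrays. Its probe (mm9, chr7:147960628-147960687, plus strand) read 2.73, 3.49, 3.18 and 3.23 in knockout livers, and 7.26, 6.24, 5.94 and 6.05 in wild-type livers. The groups were far apart, and the difference was -3.22 (SE 0.29, interval -3.89 to -2.55, limma adjusted p = 0.00498), 9.30-fold lower in knockout livers. Without the replicate 4 arrays it was -3.35 with an adjusted p of 0.104. Cyp1a2, another pericentral P450 gene, was detected above background in 0 knockout livers and 1 wild-type liver, and no fold change is given.

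The lowest interval bound of the 9 genes, -1.68, lay above the highest bound of Cyp2e1, -2.55. The difference was tested directly against Glul, within each array: Cyp2e1 minus Glul was -1.37 ± 0.16 in knockout and 1.82 ± 0.54 in wild-type livers (SD, n = 4 each). That is a change of -3.19, or 9.12-fold, in the ratio of the 2 signals, with a two-sided exact permutation p of 0.0286, the smallest that 70 assignments can give. Cyp2e1 was set beside these genes with its fall already known. Glul spanned 0.54 over the 8 arrays, less than the gap between the Cyp2e1 groups, so subtracting it could not make the groups overlap. This p therefore repeats the separation of Cyp2e1, describes the contrast and is not independent evidence for it. With 3 arrays per group the change was -3.34, and the exact p cannot go below 0.1.

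Wild-type 1 stood apart for several of these genes. Relative to the mean of wild-type 2, 3 and 4 it was 3.80-fold higher for Tbx3, 3.26-fold for Rhbg, 2.60-fold for Slc1a2 and 2.28-fold for Cyp2e1. By the size of that gap these 4 genes lay at the 99.6, 99.4, 98.9 and 98.3 percentile of all genes. The same array was higher by 0.66 for Rnf43, 0.53 for Lect2, 0.22 for Oat and 0.12 for Glul on the log2 scale, and differed by -0.68 for Znrf3 and -0.77 for Lgr5. Among the 9 genes 4 had their highest level in wild-type 1, as did 22.15% of all genes.

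**Figure D3:**
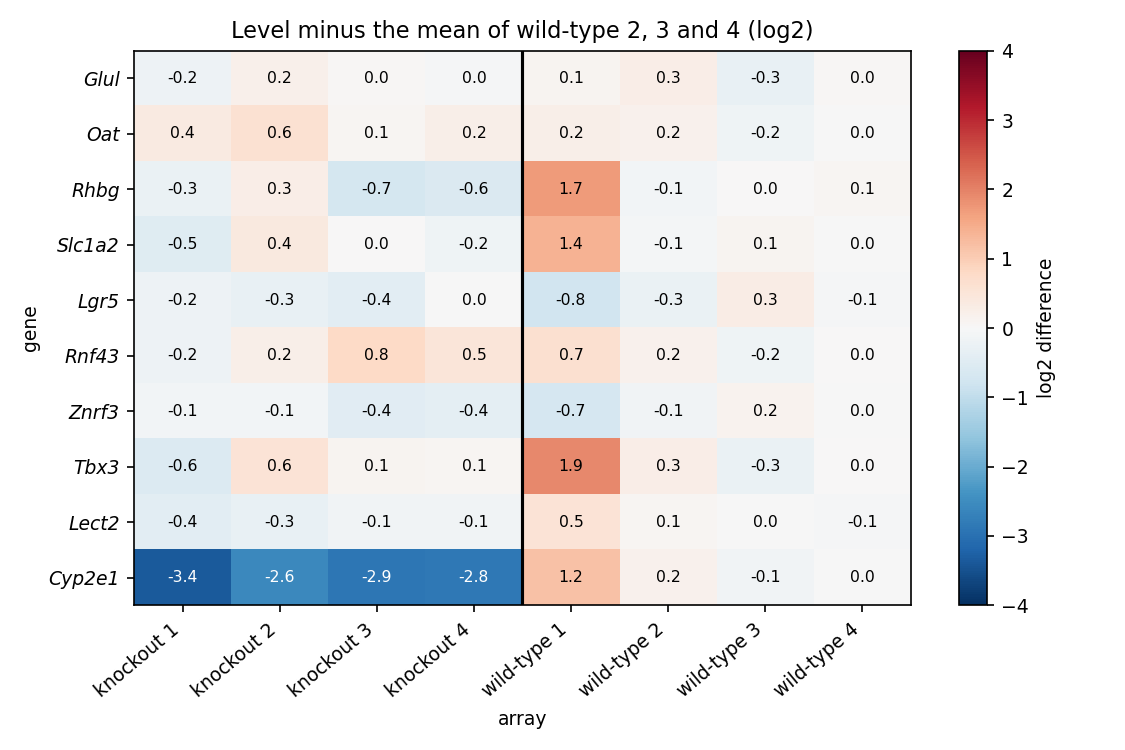
Level of each gene on each array minus its mean over wild-type 2, 3 and 4 (colour and printed number, log2), with the knockout arrays left of the black line and the wild-type arrays right of it. Tbx3, Rhbg and Slc1a2 stand out on wild-type 1, where Lgr5 and Znrf3 are negative, and Cyp2e1 is low on all 4 knockout arrays.

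Much of the wild-type spread of 4 genes came with that array. Among wild-type 2, 3 and 4, which may not all be independent, the SD was 0.11 for Rhbg, 0.09 for Slc1a2, 0.28 for Tbx3 and 0.06 for Lect2. For Glul it was 0.27 and for Lgr5 0.29. Knockout SDs were larger for all 4 of these genes, 0.43, 0.37, 0.46 and 0.13. For Rhbg, Slc1a2 and Tbx3 the highest knockout array was knockout 2 each time. The pooled within-group SD of all 8 arrays placed Tbx3, Rhbg and Slc1a2 at the 98.8, 98.1 and 96.5 percentile of all genes. Without wild-type 1 they lay at the 92.9, 89.6 and 85.5 percentile, and Rnf43 at the 90.1 percentile.

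Markers of other cell types also differed on wild-type 1. Endothelial markers were highest there for 8 of 10 genes, with summed signals of 96.2 to 126 in knockout livers and 129, 138, 93.0 and 120 in wild-type 1 to 4. Macrophage markers were highest there for 7 of 10, with summed signals of 225 to 260 in knockout livers and 224 to 297 in wild-type livers. Erythroid markers were highest there for 0 of 9, with summed signals of 2361 to 2654 in knockout livers and 2012 to 2704 in wild-type livers, the lowest being wild-type 1. The globin genes Hba-a1 and Hbb-bt weighed most in that sum and differed by -0.01 and 0.03. Between the groups, 8 of 9 erythroid markers had higher means in knockout livers, with a median of 0.30 (2 higher at an unadjusted p under 0.05). Means were lower in knockout livers for 9 of 10 endothelial and 8 of 10 macrophage markers (1 lower in each list at an unadjusted p under 0.05). In limma 0 genes of these lists passed. Hepatocyte markers such as Alb, Ttr, Trf and Serpina1a were measured on all arrays. Of the 9 in the list, 6 had lower and 3 higher means in knockout livers, with a median of -0.04. In limma 0 of the 9 passed (1 lower and 1 higher at an unadjusted p under 0.05). The lower one was Tat, at -1.09 (limma adjusted p = 0.0575). Its groups did not overlap, as for 4.37% of all genes with knockout below wild-type. The part of cell composition in the wild-type 1 values and in the differences between the groups was not tested.

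Genes whose pattern over the 8 arrays was most like that of a pericentral gene were found by the root mean square (RMS) difference of log2 levels after subtracting each gene's mean. This was done for the genes whose levels spanned over 1 log2 unit. For Tbx3 the closest were Apoa4, an apolipoprotein gene, at 0.193, a probe of an unnamed transcript at 0.252, and Slc1a2 itself at 0.264. For Rhbg they were Kif5c, a kinesin heavy chain gene, at 0.157, an unnamed probe at 0.192, and Kif5a, of the same family, at 0.211. For Slc1a2 they were Clec4g, a lectin gene of sinusoidal endothelium, at 0.161, Nat8, an acetyltransferase gene, at 0.166, and Map3k9, a kinase gene, at 0.174. For Lgr5 they were a probe of an unnamed transcript at 0.106, Sit1, a lymphocyte adaptor gene, at 0.120, and Ctrl, a chymotrypsin-like protease gene, at 0.121. Each likeness rests on 8 arrays, among which wild-type 1 was the highest for Tbx3, Rhbg and Slc1a2.

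The rest of the Wnt pathway was read from lists given by name. Of 10 genes for Wnt ligands and R-spondins, 6 were measured, 5 with lower and 1 with higher means in knockout livers, and 0 passed in limma (2 lower at an unadjusted p under 0.05). The list median was -0.28. Wnt4 had levels of 4.29 ± 0.09 in knockout and 4.60 ± 0.13 in wild-type livers (SD, n = 4 each), a difference of -0.31 (SE 0.09, adjusted p = 0.198). Wnt5a, a ligand best known for signalling without β-catenin, differed by -0.71 (SE 0.17, adjusted p = 0.141). The groups of both genes did not overlap, as for 4.37% of all genes with knockout below wild-type. Wnt9b and Rspo3, made by central vein endothelium in mouse, differed by -0.35 and -0.19 (adjusted p = 0.535 and 0.727). Wnt2, the other ligand of liver endothelium, was well above background on 1 array only.

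Receptors and co-receptors were all measured, 14 of 14, 10 with lower and 4 with higher means in knockout livers, with a median of -0.10. In limma 0 of them passed, and 2 lower and 1 higher had an unadjusted p under 0.05. The smallest p-values were those of Ror2, a receptor for Wnt5a, at -0.69 (adjusted p = 0.135), and of the Frizzled gene Fzd2 at -0.50 (adjusted p = 0.143). Fzd5 differed by 0.37 and the co-receptor gene Lrp5 by -0.14, with adjusted p of 0.363 and 0.421.

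Secreted inhibitors were measured for 8 of 12 genes, with 5 lower and 3 higher means, a median of -0.47 and 0 passing in limma (3 lower and 1 higher at an unadjusted p under 0.05). Sfrp1 and Sfrp2, which bind Wnt ligands, differed by -0.76 and -0.82 (adjusted p = 0.223 and 0.221), and Dkk3 by -0.44 (adjusted p = 0.165). Sfrp4, of the same family, was at -1.52 ± 0.30 in knockout and -2.11 ± 0.09 in wild-type livers (SD, n = 4 each), a difference of 0.59 (adjusted p = 0.150). Several of these are genes of mesenchymal cells. Stellate cell and fibroblast markers had lower means in knockout livers for 11 of 11 genes, with summed signals of 124 to 151 in knockout and 166 to 186 in wild-type livers and 0 passing in limma (8 lower at an unadjusted p under 0.05). Their part in these differences was not tested.

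The intracellular arm of the pathway lay closer to 0. All 19 genes of the destruction complex and nuclear effectors were measured, 7 with lower and 12 with higher means in knockout livers, a median of 0.05, and 0 passing in limma (0 at an unadjusted p under 0.05). Dvl2, Btrc and Apc differed by 0.22, 0.20 and 0.15, and Axin1 by -0.15, with adjusted p of 0.395 to 0.508. Ctnnb1, the β-catenin gene, differed by 0.06 (adjusted p = 0.730). Of 11 other general Wnt targets, 9 were measured, 4 lower and 5 higher, with a median of 0.04 and 0 passing in limma (1 lower at an unadjusted p under 0.05). Nkd1, a feedback inhibitor, differed by -0.32 (adjusted p = 0.321), the cyclin gene Ccnd1 by -0.36 (0.396), Myc by 0.23 (0.404) and Tnfrsf19 by 0.23 (0.709). Notum, Lef1 and Tcf7 stand in more than 1 of these lists.

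Pericentral genes outside the chosen 10 were read in the same way, and a difference between the lists was not tested. Of 23 listed, 22 were measured, 19 with lower and 3 with higher means in knockout livers, with a median of -0.35. In limma 4 passed, all lower, among them Akr1c6, Slco1b2 and Pon1, against 0.179% of all genes. At an unadjusted p under 0.05 there were 9 lower and 1 higher, against 6.48% and 6.89% of all genes. Akr1c6, a steroid dehydrogenase gene, was at 1.94 ± 0.11 in knockout and 3.75 ± 0.14 in wild-type livers (SD, n = 4 each), a difference of -1.81 (SE 0.09, adjusted p = 0.000309). Slco1b2, an organic anion uptake transporter gene, fell by 1.44 (adjusted p = 0.000367), and Pon1, the paraoxonase gene, by 1.43 (0.0350). Without the replicate 4 arrays Akr1c6 and Slco1b2 still passed (adjusted p = 0.0175 and 0.0243), and Pon1 did not (0.346). The list was drawn up with falls of some of its genes already known, so its count is no independent evidence. On wild-type 1, 10 of the 22 genes had their highest level.

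**Figure D4:**
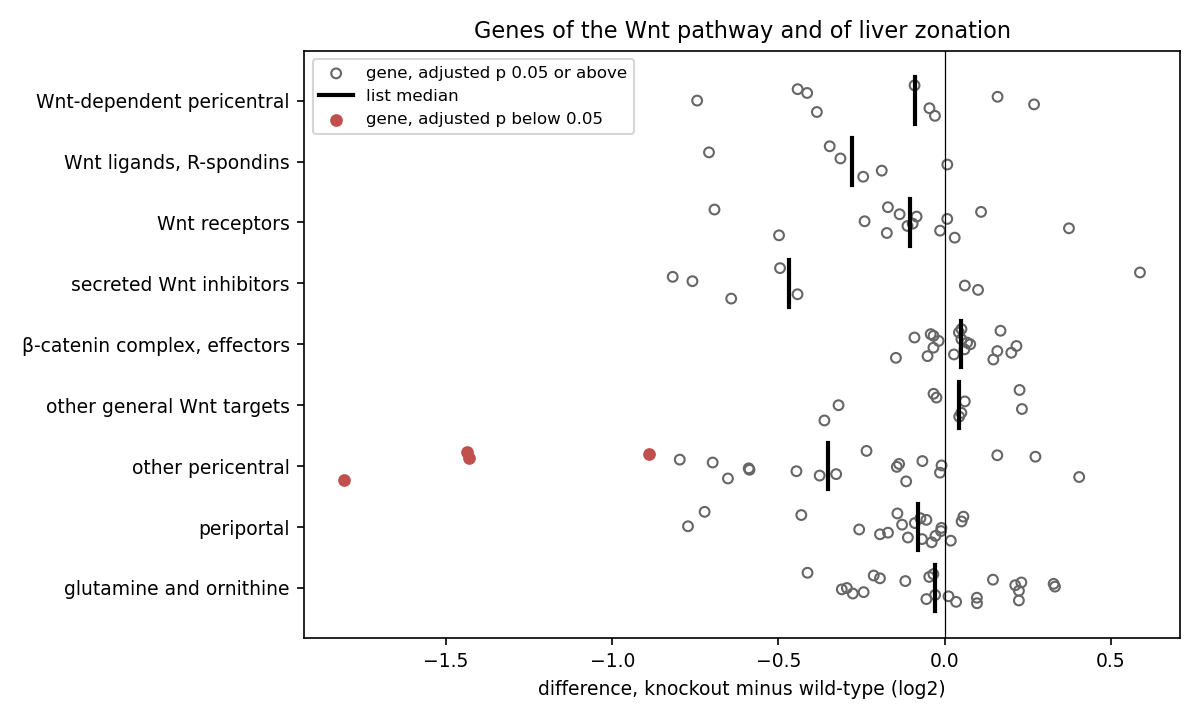
Differences between knockout and wild-type livers (x axis, log2) for each measured gene of 9 lists (rows), with open circles for an adjusted p of 0.05 or above, red points for one below, and a bar at the list median. The 4 red points are all in the list of other pericentral genes, and the Wnt-dependent pericentral genes in the top row have none.

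Genes of the opposite zone were compared in the same way. All 20 periportal genes were measured, 17 with lower and 3 with higher means in knockout livers, a median of -0.08 and 0 passing in limma (3 lower at an unadjusted p under 0.05). Pck1, the gluconeogenic enzyme gene, differed by -0.43 (adjusted p = 0.160), Sds, the serine dehydratase gene, by -0.72 (0.321), Cyp2f2 by -0.77 (0.374) and Cps1, which starts the urea cycle, by -0.26 (0.441).

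Enzymes and transporters that share substrates with Glul, Oat, Rhbg and Slc1a2 showed no common direction. Of 23 genes of glutamine, glutamate and ornithine metabolism, 12 had lower and 11 higher means in knockout livers, with a median of -0.03 and 0 passing in limma (2 lower and 1 higher at an unadjusted p under 0.05). Pycr1, which makes proline from the product of Oat, differed by 0.33 (adjusted p = 0.331). Slc7a2, a cationic amino acid transporter gene, differed by -0.41 (0.343) and Gpt, an alanine aminotransferase gene, by -0.28 (0.374).

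The results for the 9 genes were recomputed under 22 alternative settings of normalization, filtering, model and arrays, 21 for Tbx3. In each of them 0 of the 9 passed in limma. Rhbg, Slc1a2 and Lect2 kept a negative difference in all 22, from -1.17 to -0.32, from -0.72 to -0.07 and from -0.55 to -0.22.

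**Figure D5:**
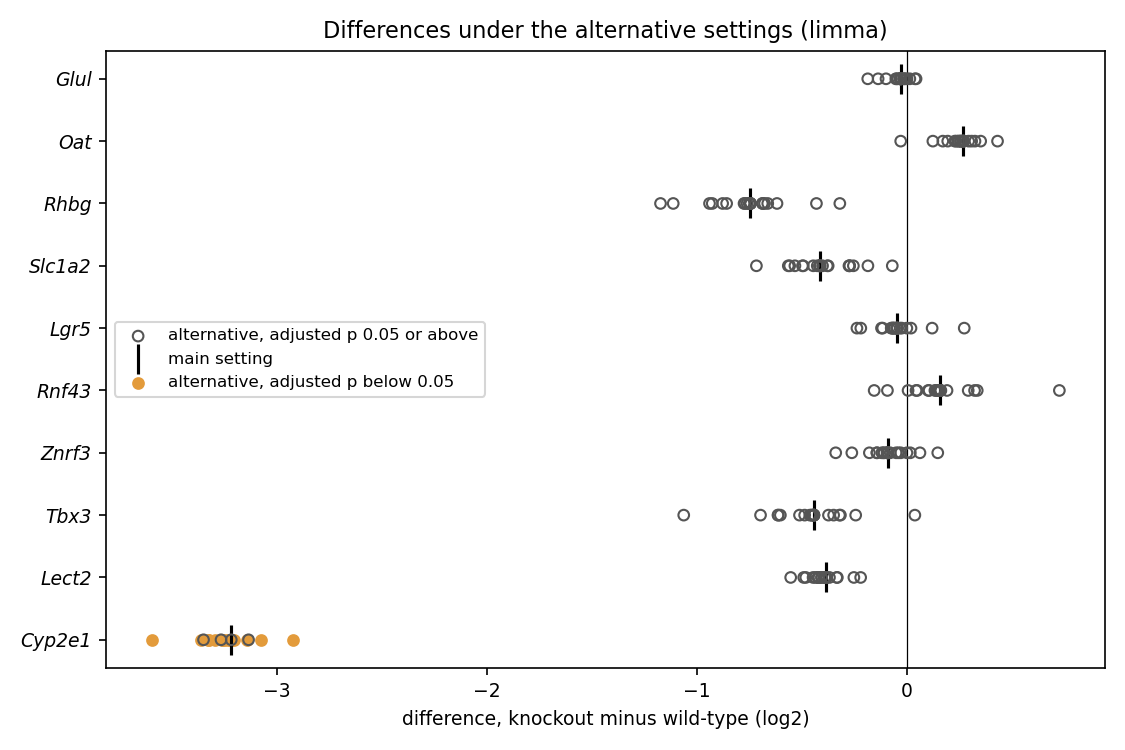
Difference between knockout and wild-type livers (x axis, log2) for the 9 genes and Cyp2e1 in the main setting (black bars) and in each alternative setting (circles), filled orange where the adjusted p is below 0.05. Orange points occur for Cyp2e1 alone among these 10 genes, and the circles of Glul, Lgr5, Rnf43, Znrf3, Oat and Tbx3 lie on both sides of 0.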

How the data were processed

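Liver RNA was measured on 8 single-colour Agilent arrays. Spot intensity, on a linear scale, was deposited as read by Agilent Feature Extraction 10.10 (version per the submitters' processing notes), together with a value table in log2 units. Each column of that deposited log2 table tracked the array's own log2 median signals (r 0.99995 to 0.999994), with medians of 8.84 to 8.86, no centring of genes, and a normalization that is not given in the sources used here. Coordinates are on mm9, per the file headers.

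Values here were processed signals on the log2 scale, from which the 75th percentile of the array's non-control spots was subtracted. Outlier-flagged spots were left out, spots of a probe were averaged, probes well above background on at least 4 arrays were kept, and a gene was represented by its brightest kept probe. Of 55681 probes, 27235 were named through their accession, 565 through a synonym and 3581 by a current symbol, with a RefSeq table (GRCm38.p6, names only), and 24300 kept the file's name. Groups were taken from the sample labels and compared with limma 3.58.1 (lmFit, eBayes, R 4.3.3), two-sided, without covariates, with Benjamini-Hochberg adjustment over 23526 genes and a threshold of 0.05. The script was run on simulated data with independent arrays, a setting that the replicate 4 arrays may not meet. The number of arrays limits the precision.

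The 10 genes, the lists, tests and alternatives were chosen with earlier results of these data known. Named were all 10 genes, Cyp2e1, Cyp1a2, Mirg, Xist and Ddx3y; every called gene of a pathway, zonation or metabolism list and otherwise up to 4 of its members with the smallest p; up to 4 marker genes of a cell type with the highest mean; and the 3 closest genes for each member that spanned over 1 log2 unit. Among these, 2 genes are not reported here. Rspo3, Wnt2, Ctnnb1, Notum, Lef1 and Tcf7 were named for their roles or for standing in several lists, after their values were seen. Tat was named for its difference, also after its value was seen. Deviations of equally numbered knockout and wild-type arrays correlated at -0.11, -0.03, -0.01 and 0.07, which gives no sign that the numbers pair the samples. Weak correlations cannot exclude a pairing, and the arrays were treated as unpaired. A planned test of Cyp2e1 against Axin2 was not run, since Axin2 was not above background. Alternatives concerned how arrays were normalized and background-corrected, which signal column, filter, probe rule and variance model were used, a replicate block, Xist or Ddx3y as a covariate, and arrays left out.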

Additional observations from a re-analysis of the deposited data

Results flagged for a closer look

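Among 58 groups of 4 arrays checked for 1 array far from the other 3, 4 had one, and chance alone gives about 1 in 20 groups. All 4 were in wild-type 1. Rhbg was at 1.06 there, against -0.77 to -0.56 on wild-type 2, 3 and 4. Slc1a2 was at -3.11, against -4.58 to -4.40. The mean over the 9 Wnt-dependent pericentral genes, each relative to its own wild-type mean, was 0.42, against -0.18 to -0.10. That mean includes Rhbg and Slc1a2, so it is not separate from their flags. The same mean over the 8 secreted Wnt inhibitors measured was 0.0966, against -0.0342 to -0.0299, a small gap that stands out beside the narrow range of the other 3 arrays.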

How the results depend on the processing

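Over 22 alternatives, 0 of the 9 genes passed in limma in either direction, and Mirg passed in all 22. Counts of genes lower and higher in knockout livers, 42 and 9 in the main setting, were 78 and 14 with Ddx3y and 11 and 3 with Xist as a covariate, 120 and 21 with the deposited table, 121 and 30 with a trended robust variance, 19 and 0 without a filter, 118 and 14 (75th percentile) and 124 and 25 (quantile) after normexp, 66 and 14 with quantile normalization, and 17 and 2 with a replicate block. They were 9 and 3 without knockout 3 and 4, 11 and 2 without wild-type 3 and 4, and 5 and 0 without the replicate 4 arrays. Leaving out each array in turn gave 14 to 64 lower and 0 to 23 higher. With the replicate block, which rests on shared numbers only, Cyp2e1 was at -3.22 (adjusted p = 0.0831). It also did not pass with Xist as a covariate (-3.13, adjusted p = 0.114), without knockout 3 and 4 (-3.27, 0.135) or without the replicate 4 arrays (-3.35, 0.104).

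Signs turned for 6 of the 9 genes. Glul was at 0.015 with Ddx3y and -0.14 to 0.045 leaving out each array, and Oat at -0.028 with Xist. Lgr5 was at 0.27 without wild-type 3 and 4 and -0.24 to 0.12 leaving out each array. Rnf43 was at -0.15 without knockout 3 and 4, -0.091 without wild-type 3 and 4, 0.73 with Xist and 0.0069 (without knockout 3) to 0.34 (without knockout 1) leaving out each array. Znrf3 was at 0.064, 0.15 and 0.0014 without knockout 3 and 4, wild-type 3 and 4 and the replicate 4 arrays, and -0.26 to 0.018 leaving out each array. Tbx3, not in the deposited table, was at -0.70 to 0.039 leaving out each array. Their causes were not tested.

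The change of Cyp2e1 relative to Glul was -3.31 to -2.92 leaving out each array and -3.34 without the replicate 4 arrays. It was -3.41 without wild-type 3 and 4 and -3.24 without knockout 3 and 4. In all of these the two-sided exact p, computed by doubling the smaller tail, cannot fall under 0.05. Low signal limits Axin2, Cyp1a2 and 3 further probes of Lgr5 and Slc1a2, which were not well above background.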
